A study of Mus musculus with 24 samples.

Results

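Noncoding genes that carry small nucleolar RNAs were followed: Gas5, Snhg1, Snhg5, Snhg6, Snhg8, Snhg12 and Zfas1. They were taken by name, with gene identifiers matched to symbols through GENCODE, and all 7 members were found among the 55385 gene identifiers counted. Hippocampal RNA of 24 mice, 4 in each of 6 groups, had been sequenced as libraries depleted of ribosomal RNA. All mice were 16 to 22 weeks old, carried Tsc1 alleles flanked by loxP sites (Tsc1 fl/fl) and received tamoxifen in 4 injections. Male and female mice were used. The 4 control mice (Tsc1-Cre-) lacked the Camk2a-CreERT2 transgene and were taken on day 8. The other 20 mice (Tsc1-Cre+) carried it, so that Tsc1 was deleted in CAMK2A-expressing neurons alone and other cells of the hippocampus kept the gene. Tsc1-Cre+ mice were taken on day 4, 6, 8 or 13 after the start of tamoxifen, and a further group (Tsc1-Cre+-Rap) was given 10 mg/kg rapamycin daily from day 4 and was taken on day 13.

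Most small nucleolar RNAs (snoRNAs) of mammals are cut out of the introns of a host transcript. Box C/D snoRNAs guide methylation of ribosomal RNA and box H/ACA snoRNAs guide pseudouridylation. The spliced RNA of noncoding hosts such as Gas5 is short-lived, in part because translation of its short reading frames exposes it to nonsense-mediated decay. Many hosts start with a run of pyrimidines, the feature of 5′ terminal oligopyrimidine (TOP) RNAs whose translation depends on the kinase complex mTORC1. Tsc1 is a subunit of the complex that holds mTORC1 in check, and rapamycin inhibits mTORC1.

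The start regions of the hosts are shown because this run is what sets TOP transcripts apart. RefSeq promoter windows on GRCm38.p6 were found for 6 members and not for Snhg6. The lines below give 35 bases before the annotated start and 50 bases from it, 5′ to 3′. Capitals mark a C followed by at least 4 further C or T letters, so a run of at least 5, that begins within 10 bases of the start on the transcribed strand. Gas5 has a pair of annotated starts, and the downstream start, the one with a run, is printed.
Gas5 (chr1:161035131-161035215, plus strand): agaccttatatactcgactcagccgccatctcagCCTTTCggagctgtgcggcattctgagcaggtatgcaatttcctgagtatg
Snhg1 (chr19:8723452-8723536, plus strand): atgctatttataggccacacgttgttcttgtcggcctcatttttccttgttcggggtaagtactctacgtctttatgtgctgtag
Snhg5 (chr9:88522848-88522932, minus strand): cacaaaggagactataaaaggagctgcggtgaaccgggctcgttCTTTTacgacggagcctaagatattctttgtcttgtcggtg
Snhg8 (chr3:123508287-123508371, minus strand): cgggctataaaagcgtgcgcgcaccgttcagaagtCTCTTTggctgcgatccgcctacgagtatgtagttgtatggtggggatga
Snhg12 (chr4:132308643-132308727, plus strand): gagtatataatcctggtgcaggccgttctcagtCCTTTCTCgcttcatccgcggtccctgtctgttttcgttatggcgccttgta
Zfas1 (chr2:167062899-167062983, plus strand): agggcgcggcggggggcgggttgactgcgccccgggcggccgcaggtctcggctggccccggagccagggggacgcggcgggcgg
Such a run was found in 4 of these 6 members, Gas5, Snhg5, Snhg8 and Snhg12. It was also present in 32.6% of the 27025 genes with a window, so it does not single out the hosts. The Snhg12 run was 8 bases long, those of Gas5 and Snhg8 were 6, and that of Snhg5 was 5. No run that met this rule began within 10 bases of the annotated starts of Snhg1 and Zfas1, although the printed Snhg1 line holds a pyrimidine stretch that begins with T just after its start.

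Snhg1 shares its start region with Slc3a2, which encodes the heavy chain of cell-surface amino acid transporters and is transcribed in the opposite direction. The stretch is printed because it lies between a noncoding host and a coding gene that are compared below. It is taken from the RefSeq window of Snhg1 on GRCm38.p6. Capitals mark the 105 bases between both GENCODE starts, followed by the first bases of Snhg1. The GENCODE start of Snhg1 differs from the RefSeq start used in the lines above.
Snhg1 to Slc3a2 (chr19:8723370-8723536, plus strand): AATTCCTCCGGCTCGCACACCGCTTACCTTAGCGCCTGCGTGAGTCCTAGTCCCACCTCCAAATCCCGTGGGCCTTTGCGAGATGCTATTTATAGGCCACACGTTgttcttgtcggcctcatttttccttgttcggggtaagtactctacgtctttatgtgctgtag

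The 7 hosts differed in how many snoRNA genes they carry. On GRCm38, Gas5 (ENSMUSG00000053332.13, chr1:161034422-161038539, plus strand) spans 10 annotated snoRNA genes and Snhg1 (ENSMUSG00000108414.1, chr19:8723475-8726443, plus strand) spans 8. Zfas1 (ENSMUSG00000074578.14, chr2:167062934-167065862, plus strand) spans 3 and Snhg5 (ENSMUSG00000097195.10, chr9:88521050-88522929, minus strand) spans 2, the latter being Snord50a and Snord50b of the box C/D kind. Snhg6 (ENSMUSG00000098234.7, chr1:9941959-9944118, minus strand) holds only Snord87. Snhg8 (ENSMUSG00000104960.1, chr3:123507552-123508404, minus strand) holds only Snora24, a box H/ACA RNA. Snhg12 (ENSMUSG00000086290.9, chr4:132308623-132311024, plus strand) spans 5 snoRNA genes of both kinds, among them Snora44, Snora61 and Snord99. Snord80 in Gas5 and Snora16a in Snhg12 are each annotated as a pair of overlapping genes. The counts of snoRNA genes here and below are therefore of annotated genes and not of separate sites.

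**Figure D1:**
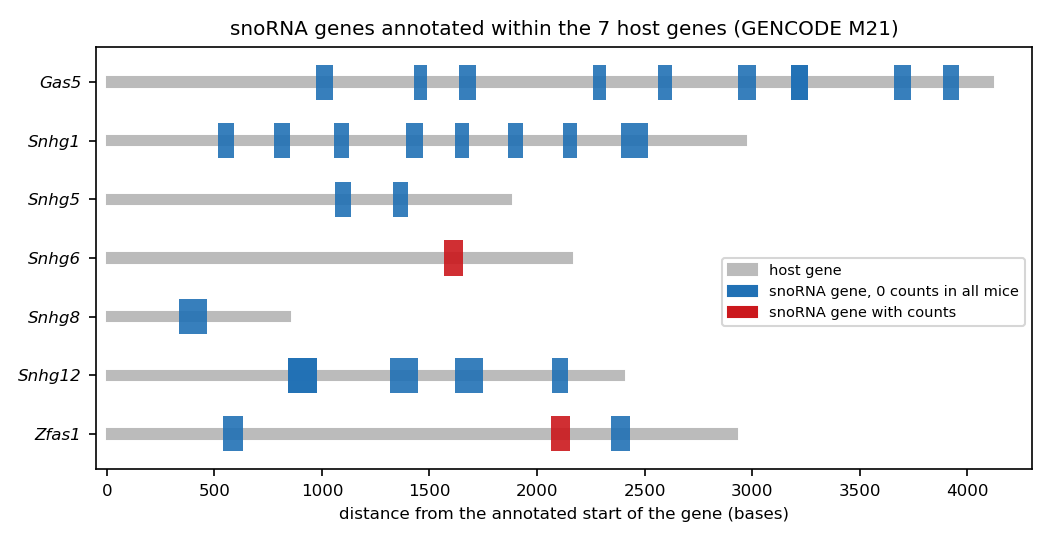
Grey bars are the 7 host genes drawn to scale from their annotated start (x axis, bases), and boxes are the 30 snoRNA genes within them. Blue boxes had 0 counts in all 24 mice, and the 2 red boxes, Snord87 in Snhg6 and Gm23201 in Zfas1, had counts.

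The mature snoRNAs were almost absent from the counts. Of the 30 snoRNA genes within the hosts, 28 had 0 counts in every mouse, against 41.1% of the 1507 snoRNA genes in the annotation. All 28 lie wholly inside exons of their hosts as annotated, and so does Gm23201, which had counts. Transcripts typed as retained introns are listed for these hosts, except for Snhg12, which has 0 of them. The part of this overlap in the zeros was not tested. Only Snord87, with 3 to 31 counts per mouse, and Gm23201, with 11 to 97 counts, were seen. Neither passed the test in any of the 6 comparisons, where their smallest adjusted p in edgeR's quasi-likelihood test was 0.330 for Snord87 and 0.112 for Gm23201. The levels below are therefore those of the host genes, and production of the snoRNAs was not measured. For Snhg1, Snhg8, Snhg12 and Zfas1 the annotated exons together cover the whole gene span. Spliced and unspliced host RNA were therefore not told apart.

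The sequences of these 2 snoRNAs and of their neighbours in Zfas1 are printed to show what was and was not counted. They come from the GENCODE M21 transcripts, with box C (TGATGA within the first 20 bases) and box D (CTGA within the last 20) in capitals.
Snord87 (chr1:9942463-9942549, minus strand): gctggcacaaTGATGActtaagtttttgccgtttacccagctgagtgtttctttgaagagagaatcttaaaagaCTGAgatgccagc
Gm23201 (chr2:167064998-167065086, plus strand): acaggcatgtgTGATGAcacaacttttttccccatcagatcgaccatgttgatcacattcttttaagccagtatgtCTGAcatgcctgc
Gm25878 (chr2:167063473-167063565, plus strand): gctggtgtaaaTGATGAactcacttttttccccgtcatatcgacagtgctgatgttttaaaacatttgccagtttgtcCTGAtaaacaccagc
Snord12 (chr2:167065276-167065365, plus strand): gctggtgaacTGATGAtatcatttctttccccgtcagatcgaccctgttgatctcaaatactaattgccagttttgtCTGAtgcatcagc
Both boxes were present in all 4 of them, in 20 of the 30 snoRNA genes of the hosts and in 20.5% of all 1507 snoRNA genes. Gm25878 and Snord12 lie in the same host as Gm23201, carry the same boxes and had 0 counts.

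The depth of the libraries was uneven on day 13. Total counts per mouse ranged from 28208561 to 126435936, and mice A and B of day 13 were the deepest, at 69971957 and 126435936, while mice C and D had 38423852 and 41101425. Tsc1 was lower in all 4 mice of each Tsc1-Cre+ group than in every control mouse, with a log2 fold change of -0.75 ± 0.08 (SE) on day 13. Markers of hippocampal cells were detected in all mice, among them Prox1 of dentate granule cells at 75.3 to 175 CPM (read counts relative to the TMM-scaled library size) and Wfs1 of CA pyramidal neurons at 62.9 to 159 CPM. In bulk RNA, fewer cells of a type and less RNA per cell cannot be told apart. Some cell type marker lists moved with a group. On day 6, 4 of 5 astrocyte markers fell (median log2 fold change -0.33), with summed levels of 4489 to 4780 CPM against 4886 to 5358 CPM in controls, and 3 of 5 microglial markers fell, with sums of 150 to 159 CPM. Under rapamycin, 3 of 5 oligodendrocyte markers fell (median -0.59), with sums of 1903 to 2596 CPM against 2397 to 3634 CPM in controls. So did 4 of 5 microglial markers. On day 6, 3.81% of all genes were lower, and under rapamycin 3.57% passed in either direction. Between rapamycin and day 13, 3 of 5 astrocyte markers were lower and 1 higher, where 17.7% of all genes were lower. There, 3 of 5 microglial, 2 of 3 endothelial and 2 of 4 CA pyramidal markers were lower, and 1 of 3 dentate granule markers was higher. The summed level of 3 striatal markers was 18.1 to 28.7 CPM on day 13 against 8.21 to 10.4 CPM in controls and 6.21 to 27.3 CPM on day 8, and that of 5 microglial markers was 123 to 143 CPM under rapamycin against 170 to 205 CPM in controls. Of 3 endothelial markers, the summed level on day 13 was 153, 148, 125 and 108 CPM in mice A to D, against 111 to 133 CPM in controls. Sums of 3 thalamic markers were 125 CPM in day 8 mouse C and 108 CPM in control mouse D. In the other mice they were at most 60.9 CPM. Sums of 5 choroid plexus markers ranged from 37.3 to 1653 CPM over the mice. No marker in these lists was at 0 throughout, and their part in the results below was not tested.

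Per length, Gas5 was the most abundant host in the control mice. Its level was 16.1 ± 0.702 CPM per kilobase of annotated exon (SD, n = 4), followed by Snhg8 with 11.7 ± 0.894. Snhg6 and Snhg12 had 5.98 ± 0.376 and 5.76 ± 0.319 CPM per kilobase, and their ranges overlapped. Snhg5 had 4.76 ± 0.206, Zfas1 4.06 ± 0.208 and Snhg1 2.58 ± 0.154 CPM per kilobase. The counts behind these control levels ranged from 343, for Snhg6, to 3800, for Gas5, per mouse. Over all groups, host counts per mouse ranged from 228, for Snhg5 in rapamycin mouse A, to 11984, for Gas5 in day 13 mouse B.

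Across the 6 groups, 6 of the 7 hosts differed in an F test of edgeR over all 24 mice, where 41.9% of 27110 genes passed. Snhg1 had the smallest adjusted p, 0.00106, and Snhg12 did not pass, at an adjusted p of 0.0817. Without mice A and B of day 13, Gas5, Snhg8, Snhg12 and Zfas1 passed, at adjusted p from 0.00111 to 0.0107, and Snhg1 (0.0671), Snhg6 (0.135) and Snhg5 (0.146) did not. When the groups were ordered by mean level, the ranges of neighbouring groups overlapped in all 5 steps for every host but Snhg8, whose rapamycin group lay above the next group without overlap.

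**Figure D2:**
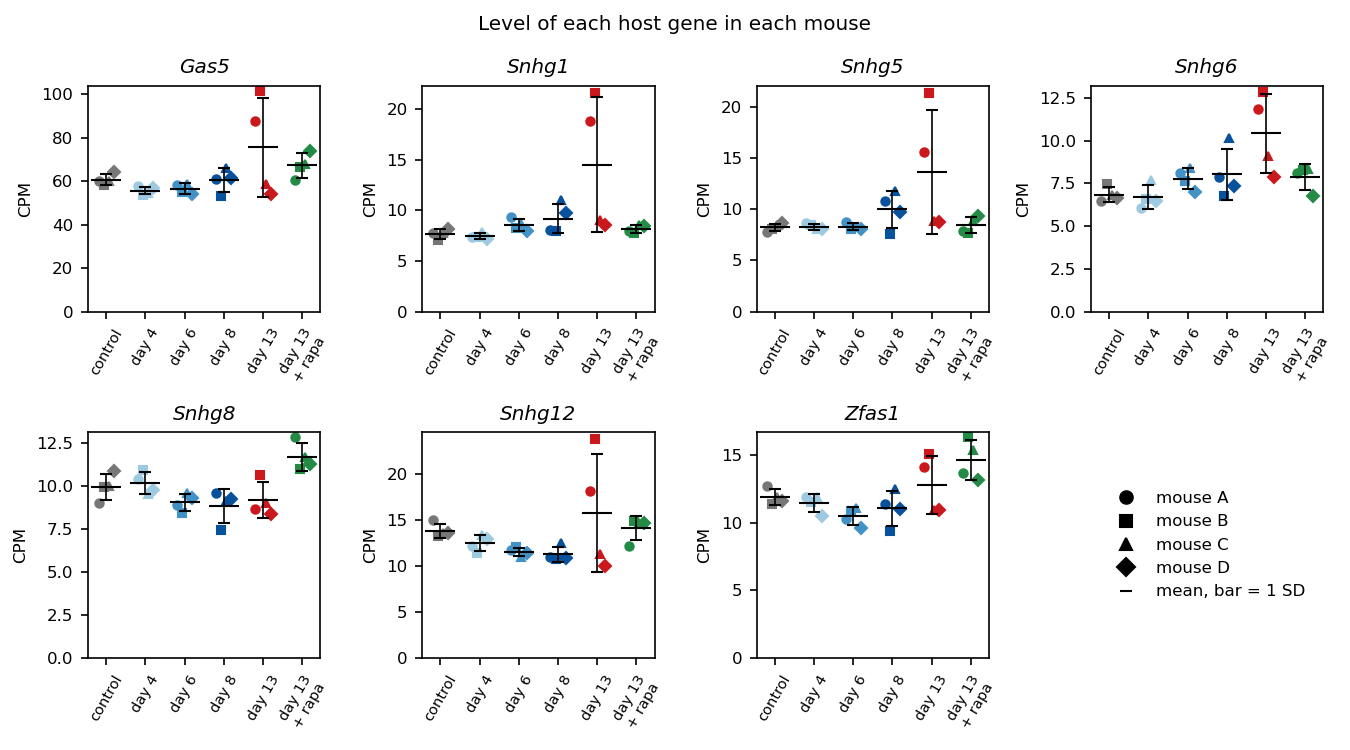
The level of each host in CPM (y axis, from 0) is plotted for each mouse by group, with the mean and 1 SD, and symbols give mice A to D of a group. On day 13, mice A and B stand above mice C and D for 6 of the 7 hosts, while Snhg8 is highest in the rapamycin group.

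Few hosts passed the test before day 13. On day 4, no host passed edgeR's quasi-likelihood test against the controls, where 4.16% of all genes tested did. Only 1 member had an unadjusted p under 0.05, Gas5, which was lower in all 4 mice, as 5.69% of genes were without overlap (log2 fold change -0.12 ± 0.04, adjusted p = 0.127), and DESeq2 called none. On day 6 and on day 8, 1 of 7 hosts passed, Snhg12, which fell, beside 10.1% of genes on day 6 and 13.3% on day 8 in either direction and 3.81% and 4.87% that were lower.

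On day 13, 2 of 7 hosts rose, Snhg1 and Snhg6, where 26.9% of genes passed in either direction and 15.6% were higher. Both also exceeded the absolute log2 fold change of 0.5 that the study asked of a differentially expressed gene, as 16.5% of genes did. The median log2 fold change of the 7 hosts was 0.32, against -0.04 over all genes. The median absolute log2 fold change was 0.324 for the hosts and 0.315 over all genes. None passed as lower, but Snhg12 did without mice A and B. With rapamycin, no host differed from the controls by edgeR's test, where 3.57% of genes passed, although 3 had an unadjusted p under 0.05 and DESeq2 called Zfas1 (adjusted p = 0.0118). All 7 log2 fold changes against the controls were above 0, from 0.05 to 0.31. Against day 13, 2 of 7 hosts differed under rapamycin, Snhg1 lower and Snhg8 higher, where 30.8% of genes passed, 17.7% lower and 13.1% higher. All comparisons with the controls share the same 4 control mice, and both comparisons of rapamycin share the rapamycin mice, so that their values are not independent.

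**Figure D3:**
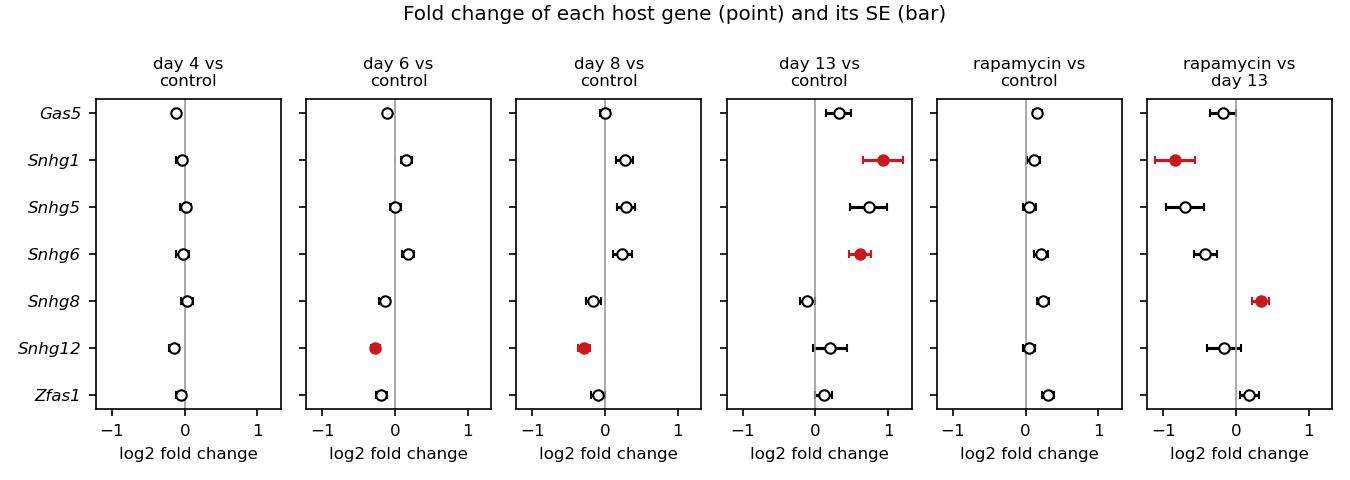
Points give the log2 fold change of each host in the 6 comparisons (x axis) and bars its SE, with filled red points for an adjusted p under 0.05. Snhg12 is red on day 6 and day 8, Snhg1 and Snhg6 on day 13, and Snhg1 and Snhg8 between rapamycin and day 13.

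Among the box C/D hosts, Snhg1, which holds a tandem series of snoRNA genes, changed most. Control mice A to D had 7.71, 7.01, 7.75 and 8.11 CPM. On day 13 the values were 18.8, 21.5, 9.0 and 8.57 CPM, all above the controls, but mice A and B were far above C and D. The log2 fold change was 0.93 ± 0.28 (adjusted p = 0.0340). The call was lost in 6 of 8 fits that each left out 1 mouse, any control mouse or day 13 mouse A or B, with adjusted p from 0.0761 to 0.0866. Without mice A and B together the log2 fold change was 0.23 (adjusted p = 0.185). With Xist as a covariate it was 0.59 (adjusted p = 0.0681). On day 8 mice A to D had 8.05, 7.97, 11 and 9.72 CPM, with a log2 fold change of 0.27 ± 0.12 (adjusted p = 0.153). Under rapamycin the 4 mice had 7.94, 7.75, 8.57 and 8.47 CPM, within or just above the control range, and Snhg1 was lower than on day 13 (log2 fold change -0.83 ± 0.27, adjusted p = 0.0416). Day 13 mouse D lay within the range of the rapamycin mice, and the other day 13 mice lay above it. That call was lost without day 13 mouse A or B or without any rapamycin mouse, with adjusted p from 0.0838 to 0.112, and the log2 fold change was -0.12 (adjusted p = 0.505) without day 13 mice A and B.

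Slc3a2, the neighbour that starts 106 bases upstream of Snhg1 on the opposite strand, passed the test on day 8 and on day 13. It had 54.0 to 58.6 CPM in controls, 90.8, 78.6, 111 and 72.5 CPM in mice A to D on day 8, and 119, 158, 95.4 and 99.1 CPM on day 13, with no overlap with the controls on either day. The log2 fold change was 0.65 ± 0.11 on day 8 (adjusted p = 0.00436) and 1.07 ± 0.14 on day 13 (adjusted p = 0.00106), and on day 13 it was 0.81 (adjusted p = 2.88e-05) without mice A and B. Under rapamycin its level was 46.8 to 57.8 CPM. Over the 24 mice, the log2 levels of Snhg1 and Slc3a2 had a Pearson correlation of 0.79, which placed Slc3a2 at rank 1245 of 18254 genes. These points share libraries and groups, and within groups, after each group mean was subtracted, the correlation was 0.67. Without day 13 mice A and B, and with group means kept, the correlation was 0.54.

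**Figure D4:**
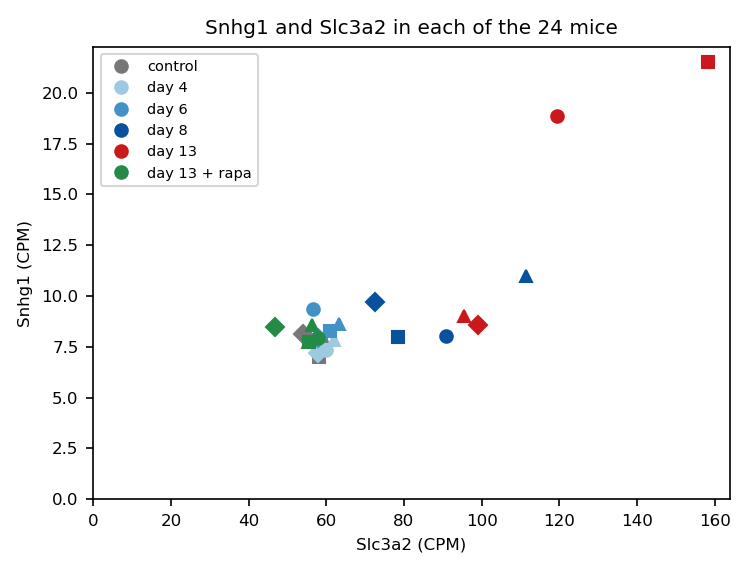
Each point is 1 of the 24 mice, with Slc3a2 on the x axis and Snhg1 on the y axis, both in CPM and from 0, coloured by group. Mice C and D of day 13 have 95.4 and 99.1 CPM of Slc3a2 with 9.0 and 8.57 CPM of Snhg1, and mice A and B of day 13 are apart from the rest on the Snhg1 axis.

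Snhg5, host of the Snord50 RNAs, showed the same split without passing the test. It had 7.83, 8.09, 8.43 and 8.63 CPM in controls and 15.6, 21.4, 8.89 and 8.74 CPM in mice A to D on day 13. All 4 day 13 mice were above the controls, mice C and D by little. The log2 fold change was 0.74 ± 0.26 with an adjusted p of 0.0574, which became 0.0213 without mouse C and 0.0191 without mouse D, and DESeq2 called it (adjusted p = 0.0178). Without mice A and B it was 0.13 (adjusted p = 0.445). On day 8 the mice had 10.8, 7.57, 11.8 and 9.78 CPM, and the adjusted p of 0.163 became 0.0230 without mouse B. Rapamycin mice had 7.91, 7.72, 8.88 and 9.36 CPM, close to the controls. Between rapamycin and day 13 the log2 fold change was -0.70 ± 0.26 (adjusted p = 0.0624), and it passed without day 13 mouse C (0.0251) or D (0.0205).

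Snhg6, host of Snord87, rose on day 13 with less spread. Control mice had 6.49, 7.47, 6.80 and 6.64 CPM and day 13 mice 11.9, 12.9, 9.08 and 7.89 CPM, with no overlap, as 15.2% of genes showed in that direction. The log2 fold change was 0.62 ± 0.15 (adjusted p = 0.0167), and 0.34 (adjusted p = 0.0758) without mice A and B. Leaving out control mouse A, C or D raised the adjusted p to between 0.0502 and 0.0518. On day 6 and day 8 the log2 fold changes were 0.18 ± 0.08 and 0.24 ± 0.13, and neither passed. Under rapamycin the mice had 8.08, 8.28, 8.36 and 6.74 CPM, 3 of them above all controls, with a log2 fold change of 0.21 ± 0.10 (adjusted p = 0.286). Against day 13 the value was -0.42 ± 0.16 (adjusted p = 0.0711), and it passed without day 13 mouse D (0.0200). Snhg6 shares 127 exon bases with Mcmdc2 on the other strand, a gene of meiotic recombination. The log2 fold change of Mcmdc2 on day 13 was -0.43 ± 0.18 (adjusted p = 0.106), and -0.75 (adjusted p = 0.0111) without mice A and B. Between rapamycin and day 13 Mcmdc2 passed, with a log2 fold change of 0.60 ± 0.19 (adjusted p = 0.0360). That call was kept in 2 of 8 fits that left out 1 mouse, with adjusted p from 0.0263 to 0.101. Without day 13 mice A and B the value was 0.92 (adjusted p = 0.00432).

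Gas5, named for its rise in growth-arrested cells, moved little outside day 13 mice A and B. Controls had 60.1, 58.1, 60.1 and 64.4 CPM and day 13 mice 87.9, 101, 58.9 and 54.3 CPM, so that the groups overlapped. The log2 fold change of 0.32 ± 0.17 did not pass (adjusted p = 0.184), passed without mouse D (0.0448) and was -0.07 (adjusted p = 0.491) without mice A and B. On day 4 all 4 mice, at 57.6, 53.7, 54.8 and 56.9 CPM, lay below the controls. Under rapamycin the mice had 60.4, 66.7, 67.9 and 74.1 CPM, 3 of them above all controls, with a log2 fold change of 0.16 ± 0.06 (adjusted p = 0.167). Its neighbour Zbtb37 starts on the other strand, 427 bases downstream of the GENCODE start of Gas5 and upstream of the RefSeq start printed above. It passed edgeR's test in none of the 6 comparisons on their 8 mice. DESeq2 called it on day 4 (log2 fold change -0.13, adjusted p = 0.0417), and the edgeR fit of all 24 mice called it between rapamycin and day 13 (0.17, adjusted p = 0.0261). It also passed with upper-quartile scaling on day 13 (-0.25, adjusted p = 0.0172) and between rapamycin and day 13 (0.31, adjusted p = 0.00929). Without day 13 mice A and B it had a log2 fold change of -0.19 on day 13 (adjusted p = 0.0342) and of 0.23 between rapamycin and day 13 (adjusted p = 0.0418).

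Zfas1, first described as an antisense RNA at the 5′ end of Znfx1, was highest under rapamycin. Controls had 12.7, 11.4, 11.9 and 11.6 CPM and rapamycin mice 13.7, 16.3, 15.3 and 13.2 CPM, with no overlap, as 5.09% of genes showed in that direction. The log2 fold change of 0.31 ± 0.08 missed the threshold (adjusted p = 0.0574), and it passed without rapamycin mouse D (0.0382). On day 6 all 4 mice, at 10.3, 10.9, 11.1 and 9.59 CPM, were below the controls (log2 fold change -0.19 ± 0.07, adjusted p = 0.119). On day 13 the mice had 14.2, 15.1, 11 and 11 CPM and straddled the control range (log2 fold change 0.12 ± 0.12, adjusted p = 0.50). Znfx1, which overlaps Zfas1 by 82 exon bases on the other strand, was lower than the controls in all 4 rapamycin mice (log2 fold change -0.09 ± 0.04, adjusted p = 0.255). Between rapamycin and day 13 Znfx1 fell by 0.32 on the log2 scale (SE 0.10, adjusted p = 0.0419), and its log2 fold change was -0.12 (adjusted p = 0.241) without day 13 mice A and B. The call was lost in 6 of 8 fits that left out 1 mouse, day 13 mouse A or B or any rapamycin mouse, with adjusted p from 0.0864 to 0.0986. It was also lost with upper-quartile scaling (-0.19, adjusted p = 0.161), the replicate block (0.0664), thinned counts (0.0610) and no filter on low counts (0.0560). For Zfas1 itself that comparison gave 0.18 ± 0.13 (adjusted p = 0.305), and 0.40 (adjusted p = 0.0361) without these mice.

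Of the hosts with box H/ACA RNAs, Snhg8 had its highest mean level under rapamycin. Controls had 8.99, 9.95, 10.0 and 10.9 CPM, day 13 mice 8.65, 10.7, 9.03 and 8.34 CPM and rapamycin mice 12.8, 11, 11.7 and 11.3 CPM. The rapamycin mice lay above all controls, as 5.09% of genes did. Against day 13 the log2 fold change was 0.34 ± 0.11 (adjusted p = 0.0419). Without day 13 mice A and B it was 0.41 (adjusted p = 0.0341), and it was lost in 7 of 8 fits that each left out 1 mouse, every one but day 13 mouse B, with adjusted p from 0.0679 to 0.117. Against the controls the log2 fold change was 0.24 ± 0.09 (adjusted p = 0.149). On day 13 it was -0.11 ± 0.11 (adjusted p = 0.480).

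Snhg12, host of Snora44, Snora61 and Snord99, was the only host that passed edgeR's test before day 13. Controls had 14.9, 13.2, 13.6 and 13.5 CPM. On day 6 the mice had 11.7, 12, 10.9 and 11.4 CPM, all below the controls, as 6.62% of genes were, with a log2 fold change of -0.27 ± 0.07 (adjusted p = 0.0193). The call was lost without day 6 mouse C (0.0763) or D (0.0527). On day 8 the mice had 11, 10.8, 12.5 and 10.8 CPM, again all below the controls, as 9.24% of genes were, with a log2 fold change of -0.29 ± 0.08 (adjusted p = 0.0383). This call was lost in 7 of 8 fits that left out 1 mouse, every one but day 8 mouse C, with adjusted p from 0.0642 to 0.107. The animal numbers of these groups fall into 2 series, and the log2 difference between day 8 and control means was -0.37 in one and -0.22 in the other, with 2 mice per group in each. With the series as a block the adjusted p was 0.0519.

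The decrease of Snhg12 was not seen in every mouse on day 13. Its values were 18.1, 23.8, 11.3 and 10.0 CPM in mice A to D, so that A and B were above all controls and C and D below them. The log2 fold change was 0.20 ± 0.23 (adjusted p = 0.551), and without mice A and B it was -0.35 (adjusted p = 0.0376). Rapamycin mice had 12.2, 14.9, 14.6 and 14.7 CPM, with mouse A below and the others within the control range (log2 fold change 0.05 ± 0.08, adjusted p = 0.823). Between rapamycin and day 13 the value was -0.17 ± 0.23 (adjusted p = 0.613), and 0.39 (adjusted p = 0.0413) without day 13 mice A and B.

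The split of the day 13 group was shared by most hosts. Mice A and B had higher levels than all 22 other mice for 5 of the 7, Gas5, Snhg1, Snhg5, Snhg6 and Snhg12, as did 16.3% of the 18255 genes with a mean of at least 1 CPM. The mean of A and B over that of C and D was 2.30 for Snhg1, 2.10 for Snhg5, 1.97 for Snhg12, 1.67 for Gas5 and 1.46 for Snhg6. It was 1.33 for Zfas1 and 1.11 for Snhg8. The median over hosts of the log2 ratio to the control mean was 0.54 in mouse A and 0.78 in mouse B, against -0.04 in mouse C and -0.12 in mouse D, and over all genes it was between -0.03 and 0.01 in these mice. Mice A and B were also the 2 deepest libraries, and the part of depth in the split was not tested. In counts thinned to the smallest library, the day 13 log2 fold change of Snhg1 was 0.73 (adjusted p = 0.0813).

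**Figure D5:**
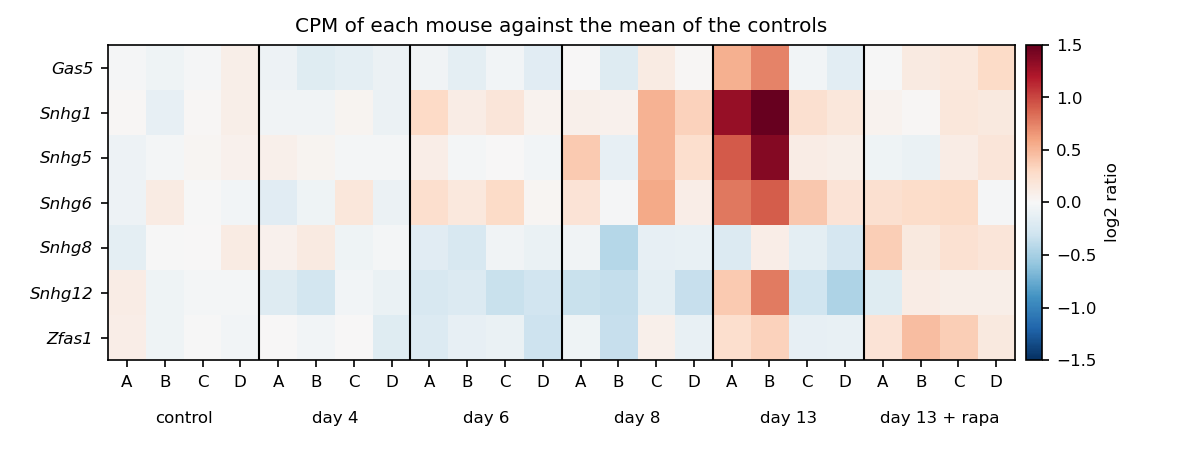
Colour gives the log2 ratio of each host's CPM in each of the 24 mice (columns A to D by group) to the mean of the 4 controls, with blue for lower and red for higher. Day 13 mice A and B are red for Gas5, Snhg1, Snhg5, Snhg6 and Snhg12, while mice C and D are blue for Snhg12 and closer to the controls than A and B for the other 4 of these hosts.

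How far the hosts varied together depended on the mice included. Over the 21 pairs of hosts, the Pearson correlation of log2 CPM over the 24 mice had a median of 0.68 and ranged from -0.11, for Snhg1 and Snhg8, to 0.94, for Snhg1 and Snhg5. After each group mean was subtracted, the median was 0.74 and all pairs were positive, from 0.22 to 0.96, with 0.91 for Snhg1 and Snhg12. Without day 13 mice A and B, and with group means kept, the median was 0.34. Over these 22 mice, Snhg1 with Snhg5 had 0.68 and Snhg1 with Snhg6 had 0.69, while Zfas1 had 0.71 with Gas5, 0.71 with Snhg8 and 0.70 with Snhg12. Snhg1 with Snhg12 had -0.25. These points share depth and group, so the correlations are descriptions.

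The genes whose log2 levels most resembled each host over the 24 mice were, for Snhg1, Wdr43, a factor of ribosomal RNA processing (0.96), Angpt2 (0.95) and Gm10033 (0.95). For Snhg5 they were Cnn3, Gm10033 and Cav1, all at 0.95 or 0.96, and for Gas5 Bclaf3 (0.93), Paxbp1 (0.93) and Lats1 (0.92). Snhg6 was nearest to Osbpl11, Rwdd4a and Arih1 (0.92 to 0.93), and Snhg12 to Lats2, Itga11 and Ugdh (0.87 to 0.89). Snhg8 was nearest to Rictor, a subunit of mTORC2, at 0.84, and Zfas1 to Rpl3, a ribosomal protein, at 0.88. These values for Snhg8 and Zfas1 were 0.86 and 0.87 without day 13 mice A and B, whereas that of Snhg1 with Wdr43 was 0.76.

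Other noncoding snoRNA hosts were mixed. Of 13 tested, 1 rose and 3 fell on day 13, when 26.9% of all genes passed in either direction and 15.6% were higher. Their median log2 fold change was -0.07 against -0.04 over all genes. Snhg14, the long host of brain-expressed snoRNAs near Ube3a, fell by 0.68 on the log2 scale (SE 0.15, adjusted p = 0.0102). Snhg11 fell by 0.52 (SE 0.12, adjusted p = 0.0127). Dancr had a log2 fold change of 0.42 ± 0.13 (adjusted p = 0.0417) and Meg3 one of -0.52 ± 0.15 (adjusted p = 0.0297), both named after their values were seen. Without mice A and B, 2 of the 13 were lower and the rise of Dancr was lost. Dancr was also lost without any control mouse or day 13 mouse A or B, and the count of risen genes was 3 without mouse C and 2 without mouse D. Under rapamycin against day 13, Snhg14 had a log2 fold change of 0.84 ± 0.15 (adjusted p = 0.00297) and Snhg11 one of 0.73 ± 0.11 (adjusted p = 0.00165).

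Many coding hosts and other genes of the TOP class rose on day 13, when 15.6% of all genes were higher. On that day, 27 of 44 coding snoRNA hosts rose and none fell, with a median log2 fold change of 0.34. Tpt1, a TOP gene that is also a snoRNA host, rose by 1.01 ± 0.12 (adjusted p = 7.63e-04), and Rps2, which encodes a protein of the small ribosomal subunit, by 0.91 ± 0.08 (adjusted p = 2.56e-04). Of 81 ribosomal protein genes, 41 rose and none fell, and of 24 other TOP genes 15 rose and none fell. With 1 mouse left out, 17 to 33 coding hosts were higher, with 17 when control mouse C was left out. For ribosomal protein genes the range was 24 to 54, and control mice A, B and C each lowered the count to 27 or below when left out. For other TOP genes it was 11 to 17. Without mice A and B these counts of risen genes were 23, 33 and 15, while the noncoding hosts Snhg1 and Snhg6 no longer passed. The lists share genes. Of 17 regulators of TOP and mTORC1-dependent translation, 7 rose and 2 fell, and 5 and 1 did so without mice A and B. The count of fallen regulators was also 1 without any control mouse or day 13 mouse A or B, and 3 without day 13 mouse D. Eif4ebp1, which encodes a repressor of cap-dependent translation that mTORC1 inactivates, rose by 3.34 ± 0.44 (adjusted p = 0.00114). Whether coding and noncoding hosts differed was not tested.

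Some genes of snoRNA particles and of nonsense-mediated decay rose on day 13, when 15.6% of all genes were higher. Of 19 protein genes of snoRNA particles, 11 rose on day 13 and none fell, among them Nhp2 (log2 fold change 0.71 ± 0.09, adjusted p = 0.00106) and Nop10 (0.51 ± 0.09, adjusted p = 0.00344), which are both core proteins of H/ACA particles. On day 8, 13.3% of all genes passed in either direction and 4.87% were lower. By then 7 of the 19 particle genes had risen, including Nop56 of box C/D particles (0.30 ± 0.05, adjusted p = 0.00303). With 1 mouse left out, 7 to 13 particle genes were higher on day 13, and leaving out control mouse A gave the 7. Of 18 genes of nonsense-mediated decay, 9 rose on day 13 and none fell, among them Etf1, a translation termination factor (0.84 ± 0.09, adjusted p = 5.60e-04). This count was 4 to 10 with 1 mouse left out, and it was 5 or below without control mouse B, C or D or day 13 mouse B. Without mice A and B, 8 particle genes were higher, and 6 decay genes were higher and 3 lower. Of 9 genes of 5′ to 3′ decay, 1 rose, the nuclear exonuclease Xrn2 (0.22 ± 0.07, adjusted p = 0.0403), and the count was 0 without any control mouse or day 13 mouse A or B, and 2 without day 13 mouse C or D.

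Under rapamycin, part of the ribosomal protein genes rose above the controls. Of the 81, 26 rose and none fell against the controls, and 1.26% of all genes were higher. The median log2 fold change of the 81 genes was 0.18. The count of risen ribosomal protein genes was 12 to 34 with 1 mouse left out, and it was 17 or below without any control mouse or rapamycin mouse A or C. Rps6, a target of the mTORC1 pathway, rose by 0.32 ± 0.04 (adjusted p = 0.00141). Of 44 coding hosts, 9 rose and none fell, among them Eef2, a translation elongation factor (0.29 ± 0.04, adjusted p = 0.00340), and the count was 5 without control mouse B. The median log2 fold change of the 19 particle genes was 0.01, the same as over all genes. Against day 13, where 17.7% of all genes were lower and 13.1% higher, 11 of the 19 particle genes fell and none rose. In the same comparison, 16 of 44 coding hosts fell and 3 rose. Without day 13 mice A and B, 8 particle genes and 13 coding hosts were lower.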

How the data were processed

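Hippocampal RNA of 24 mice was compared. The authors trimmed reads of 76 nucleotides with cutadapt 1.16.5, aligned them with STAR 2.7.2b to GRCm38 (mm10) and counted them per GENCODE M24 gene with featureCounts 1.6.4, and they deposited raw read counts. The strand setting of the counting and the treatment of reads over several genes are not given in the sources used here, so overlapping genes and snoRNAs inside host exons are uncertain. Symbols and coordinates came from GENCODE M21, where 55144 of 55385 identifiers were found.

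For each comparison, the 8 mice were fitted in edgeR 4.0.16 (R 4.3.3) with the quasi-likelihood method. Genes with few reads were dropped by filterByExpr, libraries were scaled by TMM, and p-values were adjusted over all tested genes after Benjamini and Hochberg. An adjusted p under 0.05 counts as passed. Values after ± are the SE for log2 fold changes and the SD for levels. CPM were computed on TMM-scaled library sizes. The alternatives were DESeq2 1.42.0, one fit of all mice, other scalings, no filter, the replicate letter or the animal series as a block, Xist as a covariate and each mouse left out. Thinning to the smallest library and leaving out the 2 deepest libraries were chosen after the data were seen. Scripts were tested on simulated data. Named genes were the hosts, genes starting within 2000 bases on the opposite strand or sharing exon bases, counted snoRNAs, the 3 most correlated genes per host, at most 2 genes per list and comparison by adjusted p, and Tsc1. Dancr and Meg3 were named outside this rule. The hosts and lists were chosen with earlier results of these data known. Controls were littermates of Tsc1-Cre+ mice, but which mice shared a litter is not given in the sources used here, so litter was not modelled.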

Additional observations from a re-analysis of the deposited data

Results flagged for a closer look

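In 2 of 42 sets of 4 mice tested by Dixon's criterion, 1 mouse stood apart from the others, and chance alone flags about 1 set in 20. For Snhg12 on day 8, mouse C had 12.5 CPM against a group median of 10.9 CPM. This mouse also had a summed level of thalamic markers of 125 CPM, against 17.7 to 22.1 CPM in the other day 8 mice. For Snhg12 under rapamycin, mouse A had 12.2 CPM against a group median of 14.7 CPM, and its library was the shallowest, with 28208561 counts. The cause was not tested in either case. The day 13 group, with a pair of high and a pair of low mice, is not picked out by this criterion.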

How the results depend on the processing

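The counts of hosts that passed rested on few mice and on the settings. With 1 fit of all 24 mice, the count was 0 on day 6, 0 on day 8, 4 on day 13 and 4 between rapamycin and day 13. With a log2 fold change over 0.5 required in addition, it was 0 on day 6, 0 on day 8 and 1 between rapamycin and day 13. On day 8 it was also 0 without the filter on low counts, with thinned counts and with the animal series as a block. On day 13 it was 1 with Xist as a covariate and 1 with thinned counts. Without mice A and B it was also 1, but this was Snhg12, which was lower, while Snhg1 and Snhg6 did not pass. Under rapamycin against controls it was 1 by DESeq2 and 1 with thinned counts. Against day 13 it was 4 by DESeq2, and 1 each with DESeq2 size factors, upper-quartile scaling, no filter or thinned counts. With 1 mouse left out, the count ranged from 0 to 1 on day 6, from 0 to 1 on day 8, from 0 to 4 on day 13, from 0 to 1 for rapamycin against controls and from 0 to 3 against day 13. The causes were not tested.

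For mice with the same letter, correlations of their deviations ranged from -0.21 to 0.18 over the comparisons, so the letters were not taken as pairs. In the control and day 8 groups the letters do follow the animal number series, with mice A and B in one and C and D in the other. With the letter as a replicate block the count was 0 on day 4, 1 on day 6, 0 on day 8, 1 on day 13, 0 for rapamycin against controls, 0 against day 13, and 5 in the test across groups.

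Per kilobase of the longest transcript, control levels were 23.7 for Gas5, 12.8 for Snhg8, 8.99 for Snhg12, 8.39 for Snhg6, 6.75 for Snhg5, 5.16 for Zfas1 and 2.80 CPM for Snhg1, which puts Snhg12 above Snhg6.

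Direction turned mostly where the log2 fold change was near 0. With thinned counts it was -0.092 for Snhg5, -0.015 for Snhg8 and 0.072 for Zfas1 on day 4, -0.0026 for Snhg5 and 0.040 for Mcmdc2 on day 6, -0.029 for Gas5, 0.017 for Zfas1, 0.0043 for Zbtb37 and 0.052 for Mcmdc2 on day 8, -0.0081 for Snhg1 under rapamycin against controls. With Xist as a covariate it was 0.024 for Mcmdc2 on day 4, 0.035 for Mcmdc2 on day 6, -0.068 for Snhg12 on day 13. With upper-quartile scaling it was -0.016 for Snhg5 on day 6 and -0.053 for Gas5 and -0.045 for Znfx1 on day 8. With no filter on low counts it was -0.0015 for Gas5 on day 8. With the replicate block it was -0.0015 for Gas5 on day 8. With 1 fit of all mice it was 0.00076 for Zbtb37 and 0.0085 for Mcmdc2 on day 8. With DESeq2 it was 0.0032 for Mcmdc2 on day 8. With DESeq2 size factors it was 0.0021 for Mcmdc2 on day 8. With day 13 mice A and B left out it was -0.071 for Gas5, -0.35 for Snhg12 and -0.088 for Zfas1 on day 13 and 0.23 for Gas5, 0.39 for Snhg12 and -0.031 for Tsc1 between rapamycin and day 13.

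With 1 mouse left out, these ranges crossed 0. On day 4 they were -0.013 to 0.033 for Snhg5, -0.11 to 0.018 for Snhg6, -0.017 to 0.072 for Snhg8, -0.0025 to 0.029 for Znfx1 and -0.056 to 0.042 for Mcmdc2. On day 6 they were -0.025 to 0.027 for Snhg5 and -0.070 to 0.022 for Mcmdc2. On day 8 they were -0.044 to 0.065 for Gas5, -0.058 to 0.042 for Zbtb37, -0.0017 to 0.042 for Znfx1 and -0.051 to 0.046 for Mcmdc2. On day 13 it was -0.047 to 0.36 for Snhg12. Under rapamycin against controls they were -0.0085 to 0.095 for Snhg5 and -0.083 to 0.0056 for Slc3a2. Between rapamycin and day 13 it was -0.33 to 0.077 for Snhg12.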
